A study of Rattus norvegicus with 30 samples.

Results

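The liver arrays of unhandled control rats 1, 2 and 3 were compared with those of unhandled control rats 4 to 10. These 3 of the 10 control rats, and of the 30 rats of the study, were chosen by measured values of the same arrays, namely high intensities of Fasn and Scd, which make fatty acids, and low intensities of Cpt1a, which burns them. The contrast between the 2 sets is therefore described with values, gaps and counts and carries no test. The study asked how far common handling procedures alter gene expression in the liver, with 10 rats without handling, 10 handled for 1 day and 10 handled for 4 days, 1 array per rat. All 10 control rats were female Sprague-Dawley rats aged 10 weeks, an outbred stock, with food at will and no handling, and were labelled with a 24 hr time point. The handled rats were of the same sex, stock and age. They were weighed, restrained, given water by oral gavage and bled from the tail vein. Rats handled for 1 day had the same time label and those handled for 4 days a later one. RNA came from the left liver lobe of each animal, so the rats are separate animals and not repeats of 1 sample. The time of death and the last meal of each rat are not given in the sources used here. The paper reports that some control samples had genome-wide profiles slightly unlike the others of their group. It kept them because no quality measure spoke for leaving them out. Organ weights and histopathology were evaluated in only 7 of the 10 control rats. These numbers match the sizes of the 2 sets compared here. The paper does not name the rats concerned, so whether they are the rats set apart here cannot be told.

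After a meal, insulin raises the transcription factor SREBP-1c, encoded by Srebf1, and the liver turns sugar into fatty acids and triglyceride. Between meals, glucagon, falling insulin and the fatty acid receptor PPARalpha raise genes that carry fatty acids into mitochondria, burn them and make glucose. The liver clock, a loop in which Bmal1 with Clock or Npas2 drives its own repressors, runs beside this cycle over the day, and metallothioneins, small proteins that bind zinc and copper, respond to metals and glucocorticoids.

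The values are intensities on a linear scale, with a mean of 1 on each array, and differences are of log2 intensities. Values of a gene are given for control rats 1, 2 and 3 in that order, and then as the lowest, median and highest of control rats 4 to 10. A gene lay above or below when all 3 rats were outside the range of the 7, and it was separated when the gap between the nearest rats of the 2 sets was at least 1 on the log2 scale, which is 2-fold. The array medians of the 10 controls ran from 0.118 to 0.124. Across all probe sets, the Pearson correlation between arrays was 0.966 to 0.968 within control rats 1 to 3, 0.967 to 0.976 within control rats 4 to 10 and 0.947 to 0.965 between the sets, and no 2 arrays were identical. As a sign of RNA quality, signal at the 3′ end of Gapdh was divided by that at its 5′ end, and the result was within the range of the other 7 controls in all 3 rats. The beta-actin ratio was within that range in control rats 1 and 2 and below it in control rat 3, at 2.20 against 2.29 to 3.21 on the log2 scale. Of the bacterial and phage controls added to the samples, bioB lay above the range of the 7 in control rat 2, at 0.99 against up to 0.84 (log2 intensity). The cre control lay above it in control rat 2, at 6.17, and below it in control rat 3, at 5.73, against 5.80 to 6.15. The part of these control signals in the results was not tested. In whole liver, fewer cells of a type and less RNA per cell cannot be told apart.

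Of 31042 probe sets, 110 were separated with control rats 1 to 3 above, 0.354% of all, and 100 with them below, 0.322%. Without a minimum gap, 1973 probe sets lay above, 6.36%, and 2338 below, 7.53%. With 1 probe set for each of 14217 genes, 1286 genes lay above, 9.05%, and 1393 below, 9.80%. Of these genes, 71 were separated above, 0.499%, and 69 below, 0.485%. Without control rat 3 the counts of separated probe sets were 192 above and 170 below, and leaving out any other control rat moved them by less than 1.5-fold. The rule used this contrast, so nothing is read from these shares, and they stand as the background for the counts of list members. All genes outside the 9.05% above and the 9.80% below, the large majority, overlapped. Overlap counts of the lists stand beside that and are not read as results about their members. Over all genes, the median difference of medians was 0.00. The members just inside the threshold were Mal2 and Cyp7a1 above, with gaps of 1.003 and 1.004, and Hadhb and Vwa8 below, with 1.002 and 1.032. Just outside it lay Fdft1 and Tuba4a above, with 0.996 and 0.995, and Creb3l3 and Zfp496 below, with 0.999 and 0.999.

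**Figure D1:**
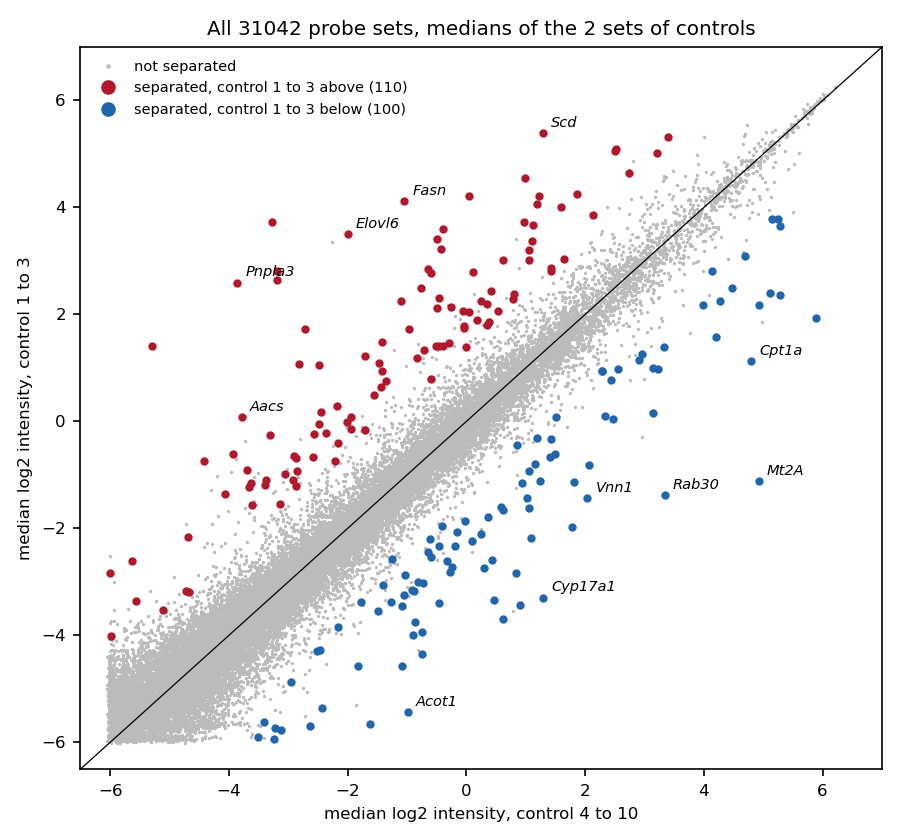
Median log2 intensity of each of 31042 probe sets in control rats 4 to 10 (x axis) and in control rats 1 to 3 (y axis), with the line of equal medians. The 110 probe sets separated above (red) and the 100 separated below (blue) lie off the line, with Pnpla3 and Mt2A the farthest of the genes in each direction by gap.

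The label lipogenic was set beside the genes of fatty acid and triglyceride synthesis. Of 26 measured members, 23 lay above and none below, 14 of them separated, with a median difference of 2.08. Fasn and Scd were used to choose the rats and Srebf1 was given as a marker of them, so their values only describe the choice. Without these 3 genes, 20 of 23 members lay above and 11 were separated, with a median difference of 1.45. Fasn, fatty acid synthase, had 17.3, 28.7 and 10.4 against 0.322, 0.484 and 0.793. Scd, which puts the double bond into stearate, had 41.8, 53.5 and 41.6 against 1.08, 2.43 and 8.69, the widest spread of the 3 among control rats 4 to 10. Srebf1, the regulator of this pathway, had 14.8, 10.7 and 7.75 against 0.587, 0.710 and 1.14. All 3 genes had their highest value in control rat 1 or 2 and the lowest of the 3 rats in control rat 3.

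The enzymes upstream of fatty acid synthase lay above as well. Acly, which cleaves citrate to acetyl-CoA, had 23.5, 28.2 and 20.9 against 1.86, 1.98 and 2.58, a difference of medians of 3.56. Acaca, acetyl-CoA carboxylase, had 4.94, 8.57 and 4.30 against 0.607, 0.729 and 1.21. Acss2, which makes acetyl-CoA from acetate, had 9.19, 13.9 and 9.24 against 1.54, 2.07 and 2.39. In these 3 genes the nearest rats of the 2 sets were 8.11-fold, 3.55-fold and 3.85-fold apart. Aacs, which activates acetoacetate for lipid synthesis, had 1.05, 1.79 and 1.06 against 0.0373, 0.0726 and 0.120. Elovl6, which lengthens palmitate, had 11.3, 19.3 and 8.13 against 0.170, 0.250 and 0.396. Both were separated, with control rat 2 the highest. The widest gap of all genes above was that of Pnpla3, a lipid droplet protein, which had 6.03, 22.9 and 4.77 against 0.0444, 0.0691 and 0.0843. Its 7 control values were below the median intensity of the arrays, so that the difference of medians of 6.45 starts from a dim signal, and control rat 2 stood above control rats 1 and 3. Thrsp, a lipogenic nuclear protein, had 30.6, 46.5 and 33.2 against 3.18, 5.66 and 12.7. Pgd, an enzyme that supplies NADPH, had 4.40, 8.12 and 4.11 against 0.519, 0.835 and 1.22. Me1, malic enzyme and another source of NADPH, had 1.67, 5.32 and 5.24 against 0.476, 1.09 and 1.32, with a gap of 0.33. Of these 3 genes, only Me1 was not separated. The members that overlapped were Lpin1, which makes diacylglycerol, with a difference of 0.00, Elovl5, which lengthens polyunsaturated fatty acids, with 0.18, and Agpat2, which makes phosphatidate, with 0.28. In Lpin1 control rat 7 had the highest value of the 10, 4.79.

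Genes of cholesterol synthesis and uptake lay above in 21 of 22 measured members and below in 1, with 9 separated above and a median difference of 1.62. Sqle, squalene epoxidase, had 1.43, 2.13 and 2.37 against 0.148, 0.360 and 0.533. Lss, which closes the sterol ring, had 2.70, 2.52 and 1.13 against 0.361, 0.431 and 0.624. Mvd, of the mevalonate steps, had 0.681, 1.55 and 1.21 against 0.134, 0.222 and 0.270. No value of the 3 rats fell within the range of the 7 in these genes, and in Lss control rat 3 was the nearest. Idi1, an isomerase of the isoprenoid steps, had 5.97, 8.07 and 8.92 against 0.704, 1.53 and 2.03. Acat2, which joins acetyl-CoA units, had 1.73, 2.51 and 1.93 against 0.271, 0.372 and 0.618. Msmo1, a sterol demethylase, had 8.12, 11.3 and 10.4 against 1.24, 2.14 and 2.87. In Sqle and Idi1 control rat 3 had the highest value of the 3, unlike in Fasn and Elovl6. Insig1, which holds SREBP proteins back in the endoplasmic reticulum, had 22.7, 25.0 and 26.1 against 5.27, 6.64 and 8.79. Insig2, which has the same role, was the member below, with 7.76, 5.78 and 8.11 against 8.86, 12.4 and 14.1. The 2 Insig genes therefore lay on opposite sides, Insig2 by a gap of 0.13. Srebf2, the regulator of this pathway, lay above with 1.84, 1.96 and 1.79 against 0.747, 0.986 and 1.14. List members that lack a probe set of their own symbol only were not analysed here.

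**Figure D2:**
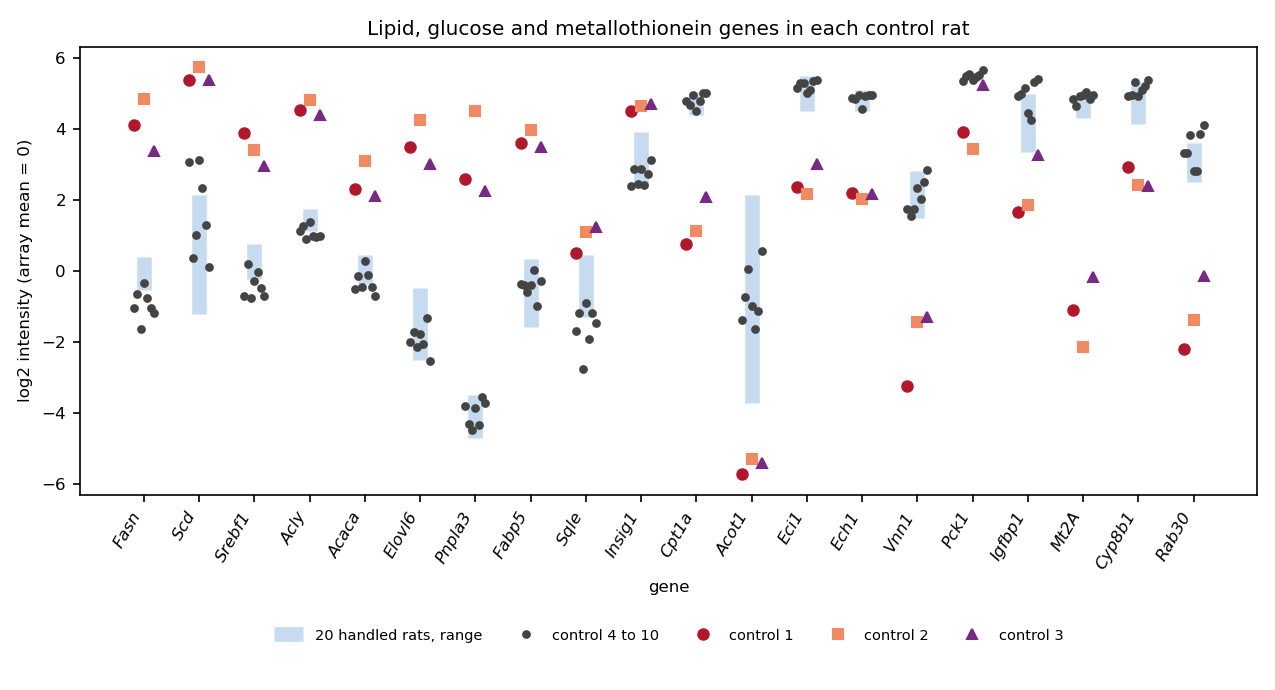
Log2 intensity of 20 genes in each control rat, with control rats 1, 2 and 3 in colour, control rats 4 to 10 as dark points and the range of the 20 handled rats as a bar. Lipid synthesis genes on the left lie above the 7 in all 3 rats, genes of oxidation and Mt2A lie below them, and in Pck1 control rat 3 is close to the others.

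Genes of fatty acid oxidation and ketone production lay below in 19 of 26 measured members and above in none, with 8 separated and a median difference of -0.95. Without Cpt1a, 18 of 25 members lay below and 7 were separated, with a median difference of -0.92. The summed intensity of these 25 genes was 182, 177 and 194 against 338, 385 and 404. Cpt1a, the entry step for fatty acids into mitochondria and one of the genes used to choose the rats, had 1.70, 2.18 and 4.24 against 22.9, 27.7 and 32.4. Acot1, a thioesterase of acyl-CoA, had 0.0187, 0.0251 and 0.0232 against 0.321, 0.503 and 1.47. The values of the 3 rats were close to 0.0139, the lowest intensity on a control array. Acot2, its mitochondrial neighbour, had 1.02, 1.12 and 1.68 against 6.88, 8.80 and 11.9. The thioesterase genes are close copies of each other, and their probe sets may share signal. Eci1, an isomerase for unsaturated fatty acids, had 5.15, 4.47 and 8.12 against 32.6, 39.1 and 42.1 and lay below in 1 of its 2 probe sets. Ech1, another such isomerase, had 4.6, 4.08 and 4.51 against 23.6, 30.3 and 31.4. Decr1, a reductase of the same route, had 8.51, 7.95 and 9.53 against 23.0, 26.0 and 27.3. All of these members were separated. Etfa, which passes electrons from this pathway to the respiratory chain, overlapped with 10.2, 11.2 and 11.3 against 10.2, 10.6 and 11. Etfb, its partner subunit, overlapped with 16.9, 18.0 and 16.9 against 17.8, 18.5 and 20.4, and so did Ehhadh, a peroxisomal enzyme, with 12.1, 9.24 and 9.20 against 10.7, 12.6 and 20.2. The trifunctional enzyme of the mitochondrion, Hadha with Hadhb, lay below with differences of -0.92 and -1.31, and the first dehydrogenases of the cycle, Acadvl, Acadl and Acadm, with -0.70, -0.90 and -0.56. The receptor gene Ppara had a difference of -1.22 but overlapped, with 0.0260, 0.0171 and 0.0155 against 0.0165, 0.0398 and 0.128. Its values in the 3 rats were near the lowest intensity on a control array, so this difference is uncertain.

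Fasting signals and lipid droplet genes were less uniform, with 8 of 18 below and 1 above. Vnn1, a pantetheinase and target of PPARalpha, had 0.105, 0.369 and 0.408 against 2.92, 4.10 and 7.15 and was the separated member. Pnpla2, the triglyceride lipase, had 0.194, 0.247 and 0.420 against 0.792, 1.19 and 1.62. Creb3l3, a liver transcription factor, had 8.25, 7.95 and 9.46 against 18.9, 21.2 and 22.5, 2.57-fold lower by the medians. No value of the 3 rats reached the range of the 7 in these genes. Plin5, which coats lipid droplets, had 0.0523, 0.0969 and 0.0675 against 0.144, 0.202 and 0.252. Cidea, another droplet protein, had 0.331, 0.194 and 0.354 against 0.574, 0.681 and 0.845. Angptl4, an inhibitor of lipoprotein lipase, had 4.48, 4.05 and 5.06 against 5.36, 6.54 and 9.49, a gap of only 0.08. Pdk4, a kinase that shuts off pyruvate dehydrogenase in fasting, overlapped with 9.81, 8.89 and 9.38 against 7.0, 14.4 and 20.7. Pdk2, of the same family, lay above with 4.95, 3.83 and 3.59 against 2.00, 2.61 and 3.01. Fgf21, a fasting hormone made by the liver, had 0.169, 0.742 and 0.237 against 0.278, 0.737 and 1.32, and its sets overlapped. Fabp1, a fatty acid carrier, and Plin2, a droplet coat, also overlapped, with differences of 0.05 and -0.44.

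Genes of sugar use lay above in 7 of 16 and below in 3. Pklr, liver pyruvate kinase, had 3.84, 7.76 and 4.18 against 0.720, 0.960 and 1.25. Tkfc, which acts on the products of fructose, had 4.92, 7.52 and 5.43 against 0.962, 1.33 and 1.49. Slc2a5, the fructose transporter, had 0.357, 1.41 and 0.429 against 0.0598, 0.0788 and 0.174, with control rat 2 far above the other two. These 3 genes were separated. Pfkfb1, which sets the level of a strong activator of glycolysis, had 1.03, 1.07 and 1.80 against 0.186, 0.297 and 0.856. Gckr, which holds glucokinase in the nucleus, had 8.78, 6.61 and 8.09 against 4.12, 5.17 and 6.24. Pfkfb3, another gene of the Pfkfb family, Slc2a2, the glucose transporter of hepatocytes, and Ldha lay below with differences of -0.61, -0.53 and -0.43. Tpi1, Eno1 and Pgk1, of the shared trunk of glycolysis, overlapped, with differences of -0.10, 0.33 and 0.42.

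Genes of glucose production lay below in 7 of 14 and above in none, and no member was separated. Without the marker Pck1, 6 of 13 members lay below. Pck1, which opens the pathway from oxaloacetate and was given as a marker of the set, had 15.1, 10.8 and 37.8 against 41.2, 45.1 and 50.7. Control rats 1 and 2 were far below the 7 in Pck1, and control rat 3 lay 1.09-fold below the lowest of them. Sds, which makes pyruvate from serine, had 1.68, 0.424 and 0.820 against 3.25, 7.80 and 14.0. Pc, pyruvate carboxylase, had 2.20, 2.32 and 2.30 against 3.29, 3.40 and 3.94. Fbp1, a phosphatase of the pathway, had 27, 25.1 and 28.1 against 32.4, 35.7 and 36.9. Got1, Mpc2 and Slc37a4 completed the members below, with differences of -0.92, -0.48 and -0.27, and in Slc37a4 the ranges were nearly touching. Pck2, Gpt, Gpt2, Mpc1, Gcgr, Foxo1 and Crtc2 overlapped, with differences from -0.65 to 0.36. Foxo1, the factor that insulin keeps out of the nucleus, had 0.228, 0.323 and 0.237 against 0.155, 0.239 and 0.443.

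In the glycogen list, 4 of 9 members lay above and 2 below. Ppp1r3b, which brings a phosphatase to glycogen, had 11, 9.35 and 6.48 against 0.281, 0.743 and 2.79. Gys2, liver glycogen synthase, had 2.36, 2.39 and 2.42 against 5.67, 7.81 and 13.8, with almost the same value in the 3 rats. Pygl, which breaks glycogen down, had 10.4, 10.0 and 8.72 against 3.58, 4.25 and 4.87. The synthase and the phosphorylase lay on opposite sides of the 7 rats. Gbe1, the branching enzyme, had 15.7, 16.9 and 14.8 against 7.17, 8.20 and 8.71. Pgm1, which interconverts glucose phosphates, had 6.16, 6.08 and 5.04 against 3.02, 3.69 and 3.83. Ugp2, which makes UDP-glucose, had 12.0, 8.37 and 12.2 against 15.9, 18.8 and 22.1. Gbe1 and Pgm1 lay above and Ugp2 below.

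Among genes of insulin, growth hormone and IGF, 8 of 22 lay below, none above and 14 overlapped, with a median difference of -0.29. Igfbp1, an IGF-binding protein that insulin lowers, had 3.17, 3.65 and 9.63 against 19.2, 31.6 and 42.2. Its value in control rat 3 was between those of the other 2 rats and the 7. Igfbp2, of the same family, had 0.384, 0.459 and 0.626 against 1.31, 3.50 and 8.62. Irs2, an adaptor of the insulin receptor, had 0.423, 0.176 and 0.790 against 1.23, 1.78 and 2.66. Lepr, the leptin receptor, had 0.333, 0.206 and 0.213 against 0.868, 1.07 and 1.63, and lay below in 4 of its 7 probe sets. Insr, the insulin receptor, had 0.406, 0.490 and 0.355 against 0.519, 0.572 and 0.685, a difference of -0.49 seen in 1 of its 2 probe sets. Socs2, which damps growth hormone signals, had 0.309, 0.120 and 0.403 against 0.472, 0.643 and 1.02. Igfbp2 and Lepr were the separated members of the list. Bcl6, a repressor that growth hormone lowers, had 0.0998, 0.141 and 0.113 against 0.193, 0.236 and 0.421. Grb10, an adaptor that restrains insulin signalling, had 0.0848, 0.0318 and 0.0217 against 0.0901, 0.149 and 0.198. The gap was 0.23 in Socs2 and 0.09 in Grb10. Igf1, the main hormone of the list, overlapped with 45.0, 40.6 and 45.6 against 42.5, 45.4 and 49.3. The growth hormone receptor Ghr overlapped with 14.4, 18.6 and 14.3 against 8.36, 11.9 and 14.5. The prolactin receptor Prlr and Igfals, which carries IGF in serum, overlapped with differences of 0.03 and -0.11. Irs1, Igfbp3, Igfbp4, Cish, Socs3, Stat5b, Jak2, Onecut1 and Pik3r1 overlapped too. In Trib1, a pseudokinase, control rats 1 and 2 lay below the 7 and control rat 3 among them, at 0.0230, 0.0228 and 0.122 against 0.0449, 0.113 and 0.140.

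Hormone receptors overlapped in 12 of 17 measured members. Of the others, 3 lay above and 2 below, beside 9.05% above and 9.80% below over all genes. Avpr1a, the vasopressin receptor of hepatocytes, lay above with 6.66, 5.96 and 7.30 against 2.56, 3.38 and 4.79. Adra1b, an adrenergic receptor, lay above with 3.69, 3.62 and 2.85 against 1.29, 1.84 and 2.17. Nr1h3, the oxysterol receptor LXRalpha, lay above with 3.72, 3.96 and 3.14 against 2.30, 2.46 and 2.67. The gaps of these members ran from 0.23 to 0.40. Nr1i3, the receptor CAR, which senses drugs, lay below with 0.159, 0.174 and 0.134 against 0.226, 0.431 and 0.927. Nr1i2, the receptor PXR, which also does so, lay below with 0.803, 0.701 and 0.985 against 1.53, 1.68 and 1.98. The thyroid receptors Thrb and Thra overlapped, with differences of 0.08 and 0.22, as did Dio1, which activates thyroid hormone, with 0.61. Nr0b2, Vdr, Rxra, Nr5a2, Hnf4a, Agtr1a, Esr1, Nr3c2 and Nr1h4 also overlapped.

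Targets of the glucocorticoid receptor overlapped in 13 of 20 members, with 5 below and 2 above. Without Mt2A, which was given as a marker of the set, 4 of 19 members lay below, 1 of them separated. Fkbp5, a co-chaperone that glucocorticoids raise, had 0.330, 0.203 and 0.264 against 0.319, 0.372 and 0.593. Tsc22d3, another such target, had 1.48, 1.40 and 1.99 against 1.57, 2.16 and 4.29. In both genes 2 of the 3 rats were under the range of the 7 and the other within it. Tat, a tyrosine enzyme raised by the hormone, had 6.14, 7.90 and 8.73 against 4.06, 7.43 and 7.95. Tdo2, a tryptophan enzyme also raised by it, had 26.8, 35.4 and 26.5 against 22.8, 26.9 and 37.1. Sgk1, a kinase, had 1.38, 1.24 and 1.07 against 0.901, 1.06 and 1.16. These targets overlapped, as did the receptor itself, Nr3c1, with 2.79, 2.49 and 2.31 against 2.45, 2.82 and 3.2. Per1, Lcn2, Gadd45g, Errfi1, Cebpb, Cebpd and Sult1e1 overlapped as well, with differences from -1.08 to 0.17. The members below were Mt2A, Mt1, Dusp1, Klf9 and Angptl4. Dusp1, a phosphatase of stress kinases, had 3.2, 2.50 and 4.37 against 5.69, 8.26 and 18.0. Klf9, a transcription factor, had 3.37, 3.02 and 5.88 against 7.86, 8.66 and 11, below in 1 of its 3 probe sets. Hsd11b1, which regenerates active glucocorticoid, had 1.91, 2.86 and 2.31 against 0.343, 0.569 and 1.67. The last lay above, as did Cdkn1a, a cell cycle inhibitor, with 0.358, 0.350 and 0.882 against 0.0401, 0.0840 and 0.306, by gaps of 0.19 and 0.20.

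Mt2A had the widest gap of all genes below, and the metallothioneins Mt1 and Mt3 were separated below as well. Their RefSeq promoters (assembly GRCr8, 300 bases around the transcription start) are shown because the 3 genes lay below together and the element through which metals act on them can be looked for in the sequence. The capitals mark matches to the metal response element cores TGCACNC and TGCGCNC, on both strands, where matches may overlap. The promoter of Mt1 lies on the minus strand at chr19:10832926-10833225, and those of Mt2A at chr19:10838659-10838958 and of Mt3 at chr19:10856031-10856330 lie on the same strand.
Mt1: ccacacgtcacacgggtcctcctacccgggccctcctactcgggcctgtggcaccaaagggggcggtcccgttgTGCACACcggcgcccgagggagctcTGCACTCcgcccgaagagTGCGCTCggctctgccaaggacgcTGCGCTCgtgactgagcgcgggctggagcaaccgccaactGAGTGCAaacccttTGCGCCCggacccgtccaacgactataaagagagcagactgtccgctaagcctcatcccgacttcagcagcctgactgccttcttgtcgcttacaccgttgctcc
Mt2A: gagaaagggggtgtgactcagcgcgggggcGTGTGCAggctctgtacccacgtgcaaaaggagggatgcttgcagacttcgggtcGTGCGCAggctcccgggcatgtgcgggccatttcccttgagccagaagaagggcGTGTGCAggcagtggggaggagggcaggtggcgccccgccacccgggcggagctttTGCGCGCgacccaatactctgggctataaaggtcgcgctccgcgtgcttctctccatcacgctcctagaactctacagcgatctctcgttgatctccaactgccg
Mt3: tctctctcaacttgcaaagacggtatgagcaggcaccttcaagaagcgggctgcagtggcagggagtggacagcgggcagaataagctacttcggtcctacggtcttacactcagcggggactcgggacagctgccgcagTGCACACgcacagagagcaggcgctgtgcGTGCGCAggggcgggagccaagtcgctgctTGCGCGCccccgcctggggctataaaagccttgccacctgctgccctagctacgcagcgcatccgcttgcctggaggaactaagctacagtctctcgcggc

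These promoters held 6, 4 and 3 matches. Of all 33469 promoters, 24.2% held at least 1 match, 1.68% at least 3, 0.439% at least 4 and 0.0388% at least 6. Of the 10 promoters of the metallothionein and metal transport list, 6 held a match. The share was also above that of all promoters for clock genes, 38.9%, fatty acid oxidation, 38.1%, genes separated below, 37.8%, and cholesterol genes, 27.8%. It was lower for fatty acid and triglyceride synthesis, 16.7%, and genes separated above, 19.7%. For these shares a gene counted as separated if any of its probe sets was, which gave 76 genes above and 73 below. The matches describe the letters of the promoter and are not shown to be sites in these livers.

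Mt2A, given as a marker of the set, had 0.461, 0.223 and 0.879 against 25.0, 30.3 and 32.8, 65.8-fold lower by the medians. Mt1 had 0.130, 0.0645 and 0.110 against 0.462, 0.544 and 0.730. Mt3 had 0.0228, 0.0715 and 0.0421 against 0.355, 0.474 and 0.645. The nearest rats of the 2 sets were 28.5-fold apart in Mt2A, 3.56-fold in Mt1 and 4.97-fold in Mt3. Their coding sequences are close copies, so their probe sets may share signal. In the same list 5 of 13 members lay above, all of them transporters. The zinc importer Slc39a4 had 1.24, 1.97 and 1.12 against 0.183, 0.432 and 0.603. The zinc importer Slc39a10 had 0.651, 0.644 and 0.488 against 0.148, 0.235 and 0.302. The copper importer Slc31a1 had 7.16, 6.62 and 6.61 against 3.72, 4.45 and 5.06. None of these was separated, and the manganese exporter Slc30a10 and the zinc importer Slc39a5 lay above by gaps of 0.10 and 0.05. Mtf1, the metal sensor that binds the element, overlapped, with 0.786, 0.800 and 0.740 against 0.650, 0.729 and 0.817. The zinc exporter Slc30a1 and the importers Slc39a14 and Slc39a8 overlapped, with differences of -0.09, 0.00 and 0.15, as did the copper pump Atp7b with 0.10.

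Clock genes were split, with 6 of 19 measured members above, 6 below and 7 overlapping. On the positive side of the loop, Bmal1 had 0.824, 0.634 and 0.757 against 0.183, 0.223 and 0.294. Npas2, a partner of Bmal1, had 1.31, 1.13 and 1.09 against 0.126, 0.182 and 0.332. Clock, the other partner, overlapped with 1.21, 1.28 and 1.30 against 1.11, 1.19 and 1.43. Bmal1 and Npas2 were separated above. Of the repressors, Cry1 had 1.26, 0.905 and 0.806 against 0.138, 0.260 and 0.312. Per2 had 1.32, 0.793 and 0.537 against 0.135, 0.144 and 0.391. Per3 had 0.0198, 0.0851 and 0.0152 against 0.20, 0.324 and 0.458. Cry1 and Per2 lay above and Per3 below, with Per2 highest in control rat 1 and Per3 highest in control rat 2. In Per3 the values of control rats 1 and 3 were near the lowest intensity on a control array. Per1 overlapped with 0.0990, 0.146 and 0.273 against 0.123, 0.307 and 0.489. Cry2 overlapped with 0.851, 0.539 and 0.607 against 0.519, 0.621 and 0.782. Both the period and the cryptochrome genes therefore held members that lay outside the 7 and members that did not. Among the nuclear receptors that repress Bmal1, Nr1d1 had 0.0803, 0.114 and 0.0948 against 0.507, 0.726 and 0.977. Nr1d2 had 0.475, 0.753 and 0.628 against 2.30, 2.67 and 3.19. Both were separated below. Rora, which activates it, overlapped with 0.405, 0.356 and 0.672 against 0.389, 0.510 and 0.601.

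The output factors that bind D-box elements went different ways. Dbp had 0.150, 0.162 and 0.128 against 0.880, 1.23 and 2.14. Tef had 0.248, 0.311 and 0.222 against 0.455, 0.530 and 0.806. Hlf, of the same family, had 1.54, 1.60 and 1.53 against 0.390, 0.620 and 0.960. Dbp was separated below and Tef lay below, while Hlf lay above. Nfil3, which competes with them, overlapped with 3.17, 2.65 and 3.0 against 2.03, 2.73 and 3.57. Bhlhe40, a repressor that binds E-boxes, lay above with 1.08, 1.61 and 0.741 against 0.240, 0.386 and 0.502. Bhlhe41, its close relative, overlapped with 0.0236, 0.0556 and 0.0808 against 0.0668, 0.0911 and 0.153. All values of Bhlhe40 in the 3 rats were above those of the 7, and in Bhlhe41 control rat 3 was within their range. Usp2, a ubiquitin protease under clock control, had 0.275, 0.304 and 0.247 against 0.305, 0.441 and 1.42, where the highest of the 3 rats was just under the lowest of the 7. Wee1, a cell cycle kinase, overlapped with 0.162, 0.132 and 0.0830 against 0.0919, 0.138 and 0.215. Per3 lay below in 1 of 2 probe sets, Tef in 1 of 3 and Nr1d2 in 2 of 3, while Hlf lay above in 3 of 4, and the other probe sets of these genes overlapped.

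**Figure D3:**
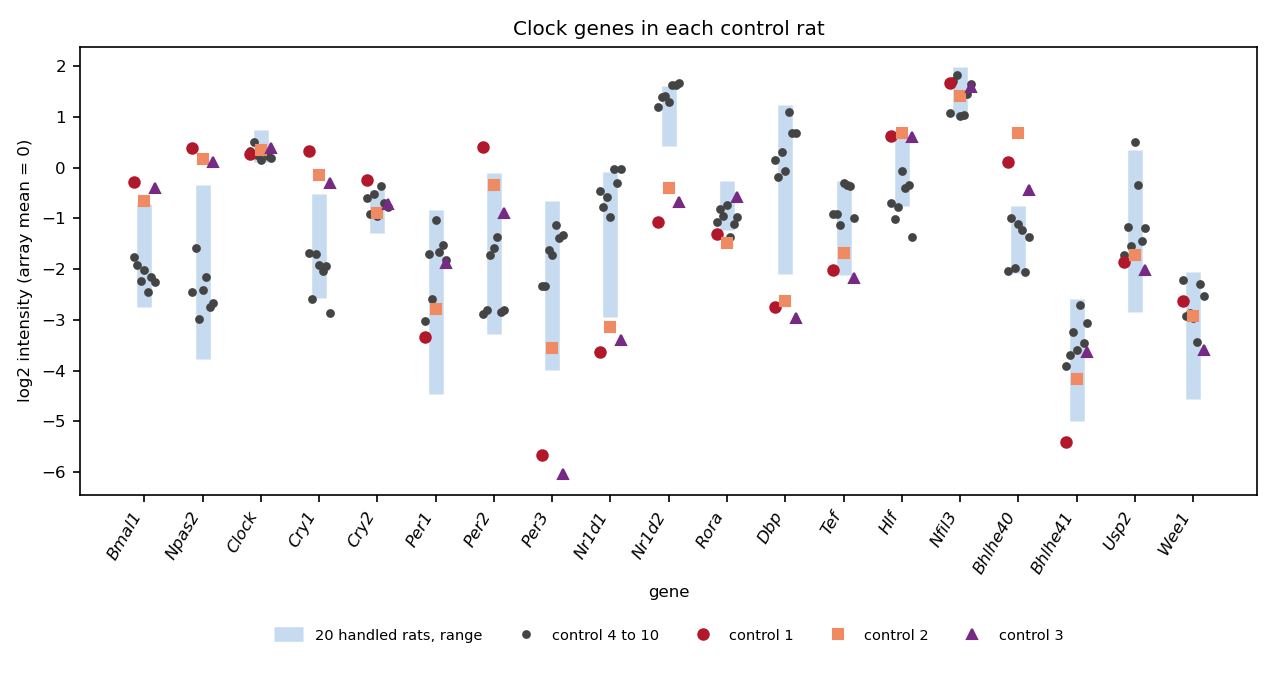
Log2 intensity of 19 clock genes in each control rat, with control rats 1, 2 and 3 in colour, control rats 4 to 10 as dark points and the range of the 20 handled rats as a bar. Bmal1, Npas2, Cry1, Per2, Hlf and Bhlhe40 lie above the 7 in all 3 rats and Per3, Nr1d1, Nr1d2, Dbp, Tef and Usp2 below. The values of Nr1d2 in the 3 rats, from 0.475 to 0.753 as intensities, are also below every handled rat, while those of Usp2 are within the range of the handled rats.

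Clock proteins act through the E-box CACGTG and the D-boxes TTATGTAA and TTACGTAA, and 4 of the clock promoters with a match are shown to relate the letters to genes on either side, 2 of genes below and 2 of genes above. Capitals mark the match, an E-box in the first 3 and a D-box in the fourth. They lie at chr10:84229405-84229704 on the minus strand for Nr1d1, which has 2 promoters listed, at chr7:115206577-115206876 on the plus strand for Tef, at chr4:143174200-143174499 on the plus strand for Bhlhe40 and at chr9:99496944-99497243 on the minus strand for Per2.
Nr1d1: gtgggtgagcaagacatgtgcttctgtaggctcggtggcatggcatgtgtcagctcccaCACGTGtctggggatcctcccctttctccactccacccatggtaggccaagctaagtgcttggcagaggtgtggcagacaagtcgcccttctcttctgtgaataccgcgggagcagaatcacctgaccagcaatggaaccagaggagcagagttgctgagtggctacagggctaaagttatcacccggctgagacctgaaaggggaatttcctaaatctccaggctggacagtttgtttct
Tef: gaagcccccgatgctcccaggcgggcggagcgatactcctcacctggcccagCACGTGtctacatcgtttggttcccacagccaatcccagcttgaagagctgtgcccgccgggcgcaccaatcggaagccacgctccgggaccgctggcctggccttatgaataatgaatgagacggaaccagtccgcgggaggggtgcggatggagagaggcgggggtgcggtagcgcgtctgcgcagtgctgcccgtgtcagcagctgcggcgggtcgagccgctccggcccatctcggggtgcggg
Bhlhe40: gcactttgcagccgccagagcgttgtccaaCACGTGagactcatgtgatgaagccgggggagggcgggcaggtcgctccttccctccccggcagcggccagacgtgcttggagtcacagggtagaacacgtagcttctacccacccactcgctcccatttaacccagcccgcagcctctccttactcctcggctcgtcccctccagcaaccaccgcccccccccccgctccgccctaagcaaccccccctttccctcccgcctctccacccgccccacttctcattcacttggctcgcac
Per2: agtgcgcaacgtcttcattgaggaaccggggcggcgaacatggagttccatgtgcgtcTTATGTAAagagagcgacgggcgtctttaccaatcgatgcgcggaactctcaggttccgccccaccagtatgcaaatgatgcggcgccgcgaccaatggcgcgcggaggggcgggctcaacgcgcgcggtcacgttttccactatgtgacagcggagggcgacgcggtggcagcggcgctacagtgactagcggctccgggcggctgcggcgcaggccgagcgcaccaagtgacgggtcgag

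Of 18 promoters of 16 clock genes, 4 held the E-box, or 22.2%, and 1 a D-box, against 6.42% and 1.01% of all promoters. The E-box promoter not shown was that of Bhlhe41, whose sets overlapped. The other listed promoter of Nr1d1 held no E-box. Among the 73 genes separated below by any of their probe sets, 9 of 74 promoters held the E-box. Among the 76 separated above in this way, 1 of 66 did, given with no test. The sterol element core TCACCCCAC was in 0.484% of all promoters and in none of the 24 promoters of fatty acid synthesis genes or the 18 of cholesterol genes, which says only that these letters are not in those windows.

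The stress lists had no direction in common, and of them only the NRF2 and glutathione list had members on 1 side alone. Among heat shock and endoplasmic reticulum chaperone genes, 6 of 21 lay below, 6 above and 9 overlapped. Hspa1a, the inducible heat shock protein, had 0.0515, 0.0670 and 0.0776 against 0.125, 0.181 and 0.724. Hsp90ab1, Dnaja1 and Dnajb1, of the cytosolic chaperones, lay below with differences of -0.55, -0.51 and -0.49. Herpud1, which serves the disposal of misfolded proteins, had 1.79, 2.22 and 3.02 against 6.27, 7.47 and 8.26 and was the separated member. Hspd1, the mitochondrial chaperonin, completed the members below, with a gap of 0.06. Of the genes of the endoplasmic reticulum, Sdf2l1 had 3.62, 3.26 and 4.00 against 1.46, 1.75 and 2.32. Hyou1, a chaperone, had 1.00, 0.996 and 0.900 against 0.458, 0.533 and 0.612. Both lay above, as did Pdia6, Manf, Calr and Creld2 with differences from 0.38 to 0.57. Hspa5, the main lumenal chaperone, overlapped with 25.4, 22.8 and 28.3 against 20.8, 22.0 and 24.7, as did Xbp1, Dnajb9, Dnajc3, Hsp90b1, Pdia4, Hsph1, Hspb1 and Hspe1.

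Genes of the amino acid starvation response lay above in 5 of 18 and below in 2. Psat1, of serine synthesis, had 0.311, 0.488 and 0.758 against 0.0537, 0.0838 and 0.274. Psph, which completes serine, had 0.525, 0.639 and 0.596 against 0.165, 0.216 and 0.226. Shmt2, which turns serine into glycine, had 4.12, 3.68 and 2.70 against 1.75, 1.90 and 2.08. The 3 genes lay above, Psph alone separated. Trib3, a pseudokinase of this response that also binds AKT, was separated below with 0.163, 0.114 and 0.211 against 0.582, 0.793 and 0.919. Slc38a2, an amino acid transporter, had 1.55, 1.41 and 2.12 against 2.18, 4.41 and 7.85, below by 0.04. The factors that drive the response, Atf4 with 8.44, 7.43 and 8.26 against 6.26, 6.97 and 9.69, Atf5 and Ddit3, overlapped, as did Asns, Chac1, Sesn2, Cth, Atf3, Phgdh, Gadd45a and Slc7a11. Ddit4, an inhibitor of mTORC1, lay above with 0.514, 0.566 and 0.554 against 0.169, 0.267 and 0.407. Cbs, of the transsulfuration route, lay above with 7.01, 6.54 and 6.26 against 3.07, 3.48 and 3.85.

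Of the NRF2 and glutathione genes 6 of 18 lay above and none below. Gsta4, a glutathione transferase, had 14.3, 15.7 and 12.3 against 5.89, 7.80 and 9.10. Ephx1, an epoxide hydrolase, had 15.9, 15.3 and 21.1 against 6.44, 9.40 and 13.7. Nqo1, a quinone reductase, had 7.36, 7.95 and 5.70 against 2.19, 4.07 and 5.67. None was separated, and the gap of Nqo1 was 0.01. Nfe2l2 itself, Gclc and Gsta1 lay above with differences of 0.43, 0.44 and 0.26. Gclm, Srxn1, Txnrd1 and Hmox1, which NRF2 also drives, overlapped with differences of -0.43, -0.33, -0.20 and 0.06. Immediate early genes overlapped in 12 of 15. Gadd45b, which stress signals raise, had 0.0412, 0.0654 and 0.112 against 0.459, 0.597 and 0.866 and was separated below. Fos had 0.114, 0.0772 and 0.107 against 0.0799, 0.212 and 0.366. Egr1 had 0.850, 1.33 and 0.424 against 0.849, 1.38 and 3.47. Jun had 1.55, 0.653 and 1.44 against 0.832, 1.87 and 3.01. In each of the last 3 genes 2 of the 3 rats were within the range of the 7 and the other under it. Jund lay above by 0.09.

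**Figure D4:**
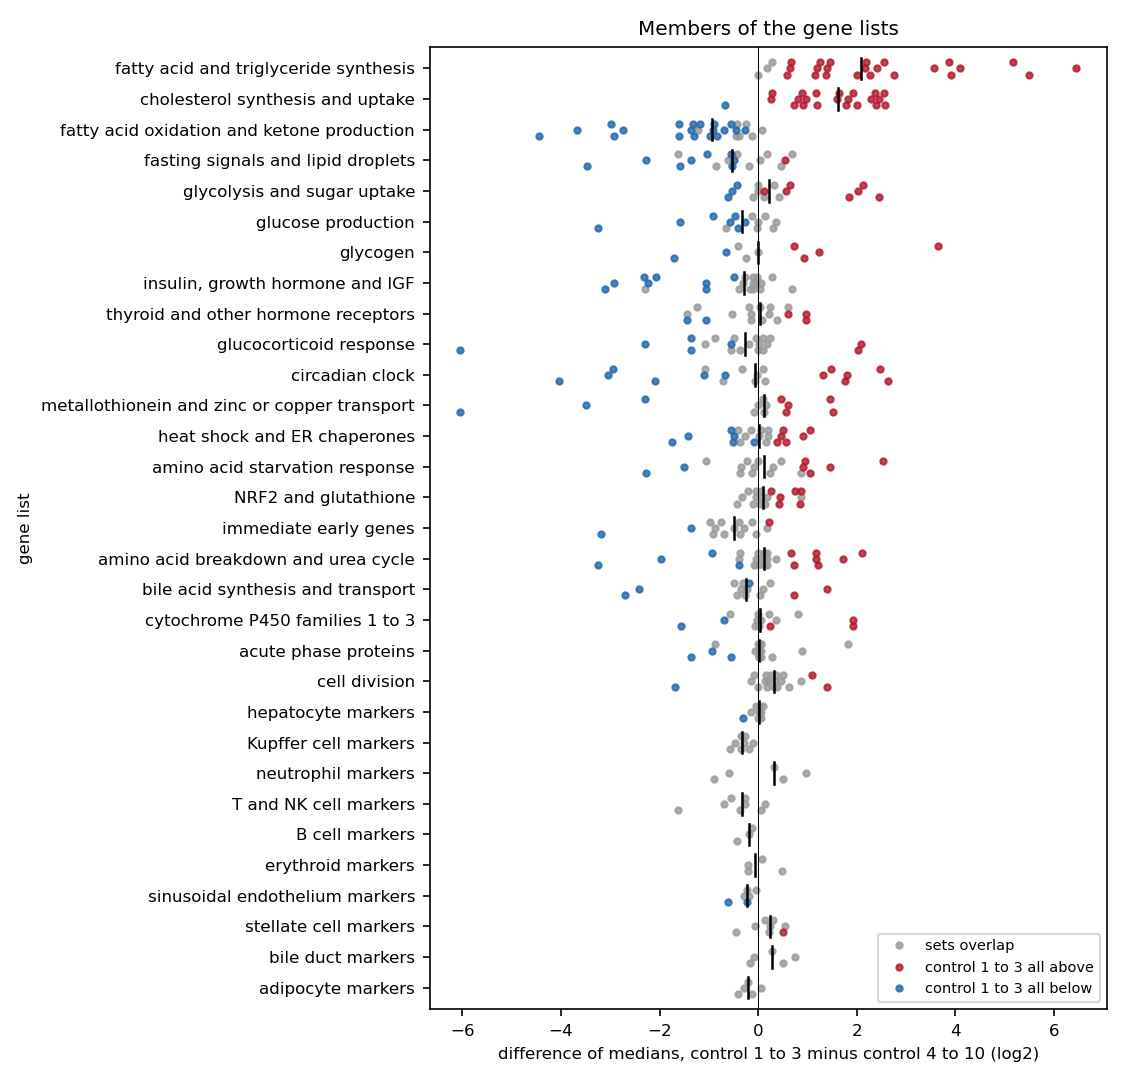
Difference of medians (log2, control rats 1 to 3 minus control rats 4 to 10) of each member of the 31 gene lists, in red where all 3 rats lay above the 7, in blue where all lay below and in grey where they overlapped, with the list median as a black line. Fatty acid and cholesterol synthesis lie to the right, fatty acid oxidation to the left. The medians of the cell type marker lists run from -0.32 for T and NK cells to 0.32 for neutrophils.

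Amino acid breakdown and urea cycle genes lay above in 7 of 24 and below in 4. Gldc, of glycine cleavage, had 2.34, 1.69 and 1.23 against 0.252, 0.393 and 0.575. Ddc, a decarboxylase of aromatic amino acids, had 5.32, 3.64 and 3.73 against 0.419, 1.14 and 1.36. Both were separated above, and Gldc lay above in 2 of its 3 probe sets and Ddc in 1 of 2. Bckdhb, for branched-chain amino acids, lay above with 4.44, 6.21 and 3.41 against 1.10, 1.92 and 2.34. Prodh, for proline, lay above with 5.04, 3.64 and 2.96 against 1.09, 1.61 and 2.18. In the urea cycle, Asl was separated below with 5.64, 4.76 and 6.86 against 18.0, 22.1 and 24.1. Its neighbours Ass1 and Arg1 overlapped, with differences of 0.19 and 0.11, and Otc lay above with 1.18.

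Bile acid genes were split. Cyp7a1, the rate-limiting enzyme of bile acid synthesis, had 7.84, 10.9 and 8.23 against 1.21, 3.11 and 3.91. Cyp8b1, which steers synthesis toward cholic acid, had 7.66, 5.31 and 5.27 against 30.3, 34.6 and 41.8. The first lay above and the second below, both separated. Abcb4, the phospholipid pump of the bile canaliculus, was separated below with 1.03, 0.986 and 2.04 against 4.81, 5.54 and 6.25. The bile acid importer Slc10a1 overlapped with 29.6, 25.4 and 31.2 against 23.2, 25.1 and 28.4.

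Of 14 genes of the cytochrome P450 list, 9 overlapped, among them Cyp2c12, the form of female liver, with 44.0, 48.8 and 43.8 against 40.4, 42.6 and 45.0. Cyp2c22, a retinoid hydroxylase, had 39.7, 38.1 and 43.0 against 7.48, 10.5 and 17.5 and was separated above. Cyp2c13, a form of male liver, lay above with 0.239, 0.572 and 0.398 against 0.0679, 0.105 and 0.164. Cyp2c11, another, lay above by a gap of 0.05. Probe sets of the Cyp2c family may share signal. Por, the reductase that serves them, had 0.651, 1.2 and 1.38 against 2.48, 3.56 and 4.40, below. Acute phase genes overlapped in 15 of 18. Lbp, which binds bacterial lipid, had 0.831, 1.40 and 1.16 against 1.94, 2.97 and 3.34. Serpina3n, a protease inhibitor, had 18.3, 17.7 and 21.3 against 29.5, 35 and 42.1. Hamp, the iron hormone hepcidin, had 27.3, 12.7 and 22.2 against 28.8, 32.6 and 34.1. These were the members below. Cell division genes overlapped in 16 of 19, with Ccnd1, a cyclin that starts the cycle, below at 1.21, 1.04 and 2.28 against 2.56, 3.87 and 5.53. Another of the 3 probe sets of Ccnd1 overlapped. Aurka and Bub1b, kinases of mitosis, lay above by gaps of 0.18 and 0.06.

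Several genes with the widest gaps belong to none of the lists. Above, Fabp5, a fatty acid carrier, had 12.1, 15.7 and 11.2 against 0.498, 0.759 and 1.02. Ddhd1, a phospholipase, had 8.74, 6.46 and 6.84 against 0.599, 0.659 and 0.928. Car3, a carbonic anhydrase of liver and fat, had 27.9, 18.6 and 7.28 against 0.282, 1.04 and 1.38. In Car3 control rat 1 was the highest and control rat 3 the lowest of the 3. Tubb2a, a tubulin, had 13.2, 12.8 and 13.2 against 1.70, 1.97 and 3.10. Snrpa, of the spliceosome, had 0.213, 0.225 and 0.222 against 0.0248, 0.0387 and 0.0606. Rprm, a cell cycle inhibitor, had 0.998, 0.638 and 0.595 against 0.0882, 0.133 and 0.176. Tubb2a and Snrpa had almost the same value in the 3 rats. Below, Cyp17a1, an enzyme of steroid synthesis, had 0.138, 0.0549 and 0.102 against 1.70, 2.46 and 5.23. Pla2g12a, a secreted phospholipase, had 0.0777, 0.0429 and 0.131 against 1.32, 1.54 and 2.03. Rab30, a small GTPase of the Golgi, had 0.217, 0.386 and 0.913 against 7.0, 10.1 and 17.2. In Rab30 control rat 3 was the nearest to the 7. Aig1, a hydrolase of fatty acid esters, had 0.237, 0.221 and 0.191 against 1.66, 2.12 and 2.74, below in 1 of its 2 probe sets. Adcy10, the soluble adenylyl cyclase, had 0.0192, 0.0376 and 0.0149 against 0.153, 0.160 and 0.370. In control rats 1 and 3 its values were near the lowest intensity on a control array. In all the genes of this paragraph so far the ranges of the 2 sets were more than 3-fold apart. Among genes named after their values were seen, the thioesterases Acot3 and Acot4 were separated below by gaps of 1.96 and 1.63. Slc22a5, the carnitine importer, had 0.567, 0.502 and 0.883 against 3.23, 4.18 and 4.95. Pex11a, of dividing peroxisomes, had 0.449, 0.272 and 0.469 against 1.33, 1.92 and 3.24. Mid1ip1, which activates acetyl-CoA carboxylase, had 5.64, 6.66 and 2.32 against 0.436, 0.5854 and 0.713. The last lay above and the first 4 below.

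Markers of liver cell types were set beside these results. Hepatocyte markers overlapped in 8 of 9 members, and their summed intensity was 431, 465.7 and 419.7 against 421, 436 and 474. Alb, the defining marker, had 64.6, 72.2 and 58.9 against 59.7, 65.0 and 72.5, and the member below, Apoa1, 27.1, 36.8 and 33.4 against 39.3, 41.3 and 49.0. All 8 Kupffer cell markers overlapped, with a summed intensity of 27.7, 28.0 and 32.6 against 26.8, 35.2 and 43.2, and all 8 had a lower median in control rats 1 to 3, with differences from -0.58 to -0.11 and a median of -0.32. Neutrophil, T and NK cell, B cell, erythroid, bile duct and adipocyte markers overlapped in all of their 5, 8, 3, 4, 5 and 5 members. Sinusoidal endothelium markers overlapped in 4 of 6, with Pecam1 and Fcgr2b below by gaps of 0.24 and 0.10, and a summed intensity of 16.5, 15.7 and 16.8 against 18.1, 18.8 and 19.4. Stellate cell markers overlapped in 7 of 8, with Pdgfrb above by 0.15, in 1 of its 3 probe sets while another lay below, and a summed intensity of 14.0, 17.6 and 18.7 against 10.1, 14.9 and 16.6. All 6 endothelial members had a lower median in control rats 1 to 3, with differences from -0.62 to -0.05. Their summed intensity was lower in all 3 rats than in any of the 7. Over all genes the median difference was 0.00, so a lower median alone is common. The part of these markers in the other differences was not tested.

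The 3 rats were not alike among themselves. Of the 110 probe sets separated above, control rat 3 was the nearest to the 7 in 64, control rat 1 in 35 and control rat 2 in 11. Of the 100 separated below, control rat 3 was the nearest in 63, control rat 1 in 21 and control rat 2 in 16. Control rat 2 was the farthest in 71 above and 52 below. The median difference from the median of the 7 was 2.18, 2.52 and 2.07 in control rats 1, 2 and 3 for probe sets above, and -2.25, -2.45 and -1.93 for those below. In 32 probe sets control rats 1 and 2 were separated and control rat 3 alone overlapped the 7, against 5 where control rat 1 alone did and 3 where control rat 2 alone did. The widest such gap was that of Stac3, named after its values were seen, with 3.64, 0.772 and 0.0477 against 0.0155, 0.0756 and 0.0882. Among genes described above, Pck1, Igfbp1 and Klf9 below and Lss and Mid1ip1 above had control rat 3 nearest to the 7, while in Cyp8b1, Dbp, Nr1d1 and Per3 control rat 1 or 2 was the nearest.

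The rule for the 3 controls names no handled rat. Control rats 1 to 3 also lay above all 20 handled rats in 104 of the 110 probe sets separated above and below all of them in 95 of the 100 separated below. By a gap of at least 1 this held for 42 and 53. These probe sets were kept for extreme values in control rats 1 to 3, so much of this follows from the choice. All 19 oxidation genes below were also below every handled rat, and of the 23 synthesis genes above 21 were above every handled rat. Over all genes, with no minimum gap, 653 of the 1286 above, or 50.8%, and 615 of the 1393 below, or 44.1%, lay outside the handled rats in the same way. These shares stand beside the counts of list members and not beside those of the separated probe sets. Of the clock genes, 4 of the 6 above and 3 of the 6 below were outside the handled rats. Dbp ran from 0.233 to 2.34 in handled rats. Per3 ran from 0.0634 to 0.638 in them, a range that includes control rat 2 at 0.0851. Mt2A ran from 19.9 to 33.2 in handled rats, and Cpt1a from 21.0 to 33.4, neither of which reached the 3 controls.

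Whether genes vary with Scd was tested in the 20 handled rats, which the rule did not use, with log2 intensities centred on the mean of each handled group. This set of rats was chosen after seeing the data. The test took 12 genes, two-sided permutation within groups and Benjamini-Hochberg adjustment over the 12. Mt2A had a Pearson r of 0.660 with Scd (permutation p = 0.0018, adjusted p = 0.0216). Its Spearman rho was 0.597 (permutation p = 0.00743, adjusted p = 0.0892), so it passed by r and not by rho. Among the handled rats Mt2A was thus higher where Scd was higher, whereas in control rats 1 to 3 Scd was high and Mt2A low.

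No other gene passed. Acaca had an r of 0.530 (permutation p = 0.0205, adjusted p = 0.123) and a rho of 0.352 (permutation p = 0.134, adjusted p = 0.403). Thrsp had an r of 0.468 (permutation p = 0.044, adjusted p = 0.176) and a rho of 0.483 (permutation p = 0.0336, adjusted p = 0.202). For the other 9 genes r ran from -0.212 for Srebf1 to 0.391 for Elovl6, with adjusted permutation p-values from 0.284 to 0.823, and Fasn and Cpt1a had 0.290 and 0.153. Their rho ran from -0.253 to 0.411, with adjusted permutation p-values from 0.325 to 0.724.

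Without the 2 handled rats farthest from their Scd median, rat 10 of the 4-day group with a Scd intensity of 0.428 and rat 4 of the 1-day group with 0.486, no gene passed. Mt2A then had an r of 0.500 (permutation p = 0.0377, adjusted p = 0.187), so its call rests on those rats. Within groups, Mt2A had an r of 0.416 after 1 day (permutation p = 0.227, adjusted p = 0.561) and 0.896 after 4 days (permutation p = 0.00016, adjusted p = 0.00192). The difference between the 2 groups was not tested.

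Control rats 4 to 10 were set apart from control rats 1 to 3 by the rule on Scd itself, so relations that include them are given as descriptions. In these 7 rats r with Scd was 0.343 for Mt2A, 0.715 for Thrsp and -0.885 for Pck1. Over the 27 rats, centred on 3 group means, it was 0.568 for Mt2A, 0.557 for Thrsp and 0.521 for Acaca, and without centring 0.567, 0.356 and 0.113. The value for Mt2A was nearly the same either way, while those for Thrsp and Acaca were lower without centring. The intensity of Scd itself ran from 1.08 to 8.69 in control rats 4 to 10, from 0.486 to 4.37 after 1 day of handling and from 0.428 to 2.62 after 4 days, all below the 3 rats.

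**Figure D5:**
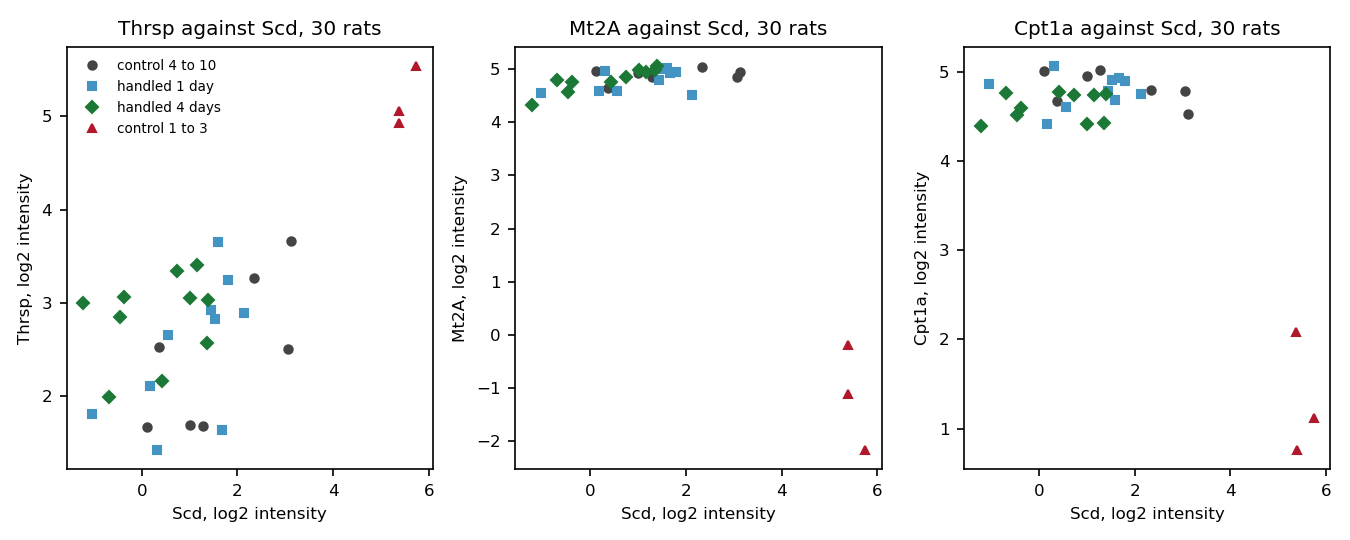
Log2 intensity of Thrsp, Mt2A and Cpt1a (y axes) against Scd (x axis) in the 30 rats, by group. Control rats 1 to 3 lie apart in all 3 panels, and over the other 27 rats, uncentred as drawn, r with Scd was 0.356 for Thrsp, 0.567 for Mt2A and 0.158 for Cpt1a.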

How the data were processed

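RNA from the left liver lobe of each rat was measured on Affymetrix whole-genome rat arrays, 1 array per rat. The authors processed the scans in Rosetta Resolver, and the deposited values are linear intensities, 1 for each probe set and rat, scaled to a mean of 1 on each array. The method of background correction is not given in the sources used here, and array number limits the precision. The deposited table held 0 columns of other samples.

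The table held 31099 probe sets, and 57 Affymetrix control features were dropped. Intensities were turned into log2 values without an offset. Gene symbols came from the platform annotation, updated to RefSeq (GRCr8) through the gene identifier. Of the probe sets, 20826 had 1 symbol, 436 several and 9780 none listed, and 20758 matched RefSeq. Where a gene had several probe sets, the one with the highest mean log2 intensity in the controls stood for it. Groups came from the sample labels, and the 2 sets of controls were chosen by measured values. The members, the 31 gene lists and the rules were chosen with earlier results of these data known.

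Genes were named by rule, as the 6 markers given with the choice, the 15 with the widest gap in each direction, in each list up to 6 members that did not overlap and up to 3 that did, and any clock, hormone, glucose production, metallothionein or stress gene. Other list members that are named were picked after their values were seen. Relations to Scd used 100000 permutations within groups, or exact permutation in control rats 4 to 10, two-sided. They were designed over the 27 rats other than control rats 1 to 3, and the restriction to the 20 handled rats was chosen after seeing the data, since the rule had used control rats 4 to 10. Promoter sequences were those of RefSeq, from 33469 promoters of 27457 genes. The alternatives were an offset of 0.05, quantile normalization, a filter on the dimmest 40% of probe sets, other gaps, 1 probe set per gene and each control rat left out. Python 3.11.15, numpy 2.4.6, pandas 2.3.3 and scipy 1.17.1 were used, and the scripts were tested on simulated data.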

Additional observations from a re-analysis of the deposited data

Results flagged for a closer look

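Single rats stood apart from the rest of their group in 13 of 331 tests of a gene in a group, or 3.93%, where chance flags about 5% of groups, so the number of such cases is no more than chance gives, and the values below are listed as such. In the 10 control rats, control rat 2 was the lowest in Baat, which conjugates bile acids, at an intensity of 17.8, in Cyp27a1, a sterol hydroxylase, at 10.5, in Hamp at 12.7, in Jak2, a kinase of growth hormone signals, at 0.0981, and in Slc37a4, which carries glucose 6-phosphate, at 4.09. Control rat 1 was the highest in Hmox1, heme oxygenase, at 3.38. Among control rats 4 to 10, Lpin1 was high in control rat 7 at 4.79 and Ddit3 in control rat 5 at 0.708. Control rat 7 was low in Col3a1, a collagen, at 6.28, control rat 8 in Atp7b at 0.105 and in Mcm7, of DNA replication, at 0.451, and control rat 9 in Slc4a1, of red cells, at 0.101. After 1 day of handling, rat 1 was low in Elovl6 at 0.273.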

How the results depend on the processing

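The 110 probe sets separated above and 100 below became 93 and 78 with an offset of 0.05, of which 93 and 78 were shared with the original sets, and 109 and 101 with quantile normalization, of which 107 and 99 were shared. Without the dimmest 40% of probe sets they were 102 and 95. With a 1.5-fold gap they were 256 and 244, without a minimum gap 1973 and 2338, and with 1 probe set per gene 71 and 69. These last settings change the counts by their construction. Leaving out each control rat in turn gave 111 to 192 above and 101 to 170 below, the highest without control rat 3. Over 440 genes, the difference of medians moved by more than the spread between rats in 139 cases and kept within it in 5141, and no direction turned. With quantile normalization 5 list counts changed, each by 1, namely clock genes below from 6 to 5, chaperones below from 6 to 7, cytochrome P450 below from 2 to 3, endothelium markers below from 2 to 3 and hepatocyte markers above from 0 to 1. None changed with the offset. The number of genes related to Scd by an adjusted permutation p was 3 over all 27 other rats, a count that includes rats the rule used, and 3 with the offset and with quantile normalization. It was 1 without centring on the group means, where Thrsp and Acaca were lost and Mt2A was not, 0 without the 2 rats farthest from the Scd median, 0 within control rats 4 to 10, 0 within the rats handled for 1 day and 1 within those handled for 4 days. In settings chosen after seeing the data, it was 1 in the 20 handled rats and 0 without the 2 of them farthest from their Scd median. In Thrsp r was 0.543 without the 2 rats of the 27 against 0.557 with them. The cause of the fall without centring was not tested. No paired analysis was possible because both sets come from 1 labelled group, share no replicate numbers and were compared with no test. Intensities near the lower end of the arrays give the least certain fold differences, as the offset shows.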
